A study of Mus musculus with 18 samples.

Results

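The AP-1 family transcription factors were taken as 10 genes of the deposited count table, found by symbol: the Fos genes Fos, Fosb, Fosl1, and Fosl2, the Jun genes Jun, Junb, and Jund, and the ATF and BATF genes Atf3, Batf, and Batf3. All 10 are among the 29875 genes of the table, and all 10 passed edgeR's filter on low counts, together with 13834 other genes, so that 13844 genes were tested. RNA came from dendritic cells (DCs, antigen-presenting cells that crawl through tissue). The donors were C57Bl6/J mice with no engineered allele, 8 to 12 weeks old. The cells had been grown from bone marrow with GM-CSF and matured with lipopolysaccharide (LPS, 200 ng/ml) on day 8 for 24 hours in every group, controls included. They were then put into bovine collagen gels of 1.7, 2.6, 3.5, or 4.4 mg/ml, or into the same chambers with no collagen. Collection followed 5 hours after the chemokine CCL19 was added to set up a gradient. By titles and library names alike, CCL19 was left out of part of the libraries without collagen. The question that the study put to these libraries was which genes respond when DCs migrate through networks of different complexity.

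Each of the 6 groups held 3 libraries, 18 in all. The 2 groups without collagen (suspension) are titled with and without CCL19, but their library names state the opposite, so they are named here by title, and nothing is said of the direction in which CCL19 acted. The library names show that each replicate number stands for 1 date and 1 sequencing lane, which makes it a batch with each group present once. Each comparison was therefore fitted both without and with the replicate number as a block. The replicates also differed in sex markers, since Xist had 380 to 5027 counts in the libraries of replicates 1 and 2 and 0 counts in those of replicate 3, where 4 Y-linked genes summed to 1066 to 5847 counts, against at most 2 in replicates 1 and 2. The methods name male mice as donors. Total counts ranged from 13062944 to 28059839 (median 17344953.5), and 3 counts corresponded to 0.107 to 0.230 CPM (counts scaled by library size to a common total). The 11 DC markers summed to 18480 to 55390 CPM in suspension and 25070 to 60250 CPM in collagen, so the defining markers of the labelled cell type were present in both. Single markers differed: in collagen against suspension, 0 were higher and 1 was lower without the block, compared with 7.78% and 12.4% of all genes. With the block, 1 was higher and 1 was lower, compared with 15.6% and 19.3%. GM-CSF cultures can also hold granulocytes and macrophages. The 8 eosinophil markers summed to 117 to 1339 CPM in suspension and 14 to 168 CPM in collagen. All 7 that were tested were lower in collagen, compared with 12.4% of all genes tested. The 9 neutrophil markers reached 445 to 6220 CPM in suspension and 812 to 3679 CPM in collagen, with 3 of them lower, and the 5 macrophage markers reached 390 to 2136 CPM and 357 to 2121 CPM. None of these 5 passed without the replicate block described above, but with it 3 were higher in collagen (median log2 fold change 0.51) and 3 were higher at 4.4 mg/ml against suspension (median 0.82). With the block, 15.6% and 15.8% of all genes were higher in these comparisons. Basophil and mast cell markers (6 genes), lymphocyte markers (6 genes), and stromal markers (4 genes) summed to at most 127, 13.2, and 9.05 CPM in suspension and 165, 7.15, and 86.5 CPM in collagen. None of these markers was at 0 in every library. The part of other cells in the results on AP-1 genes was not tested, and in bulk RNA fewer cells of a type cannot be told apart from less RNA per cell.

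AP-1 is a dimer of basic leucine zipper (bZIP) proteins. Fos proteins bind DNA only with a partner, usually a Jun protein, whereas Jun proteins can also pair with each other, with ATF proteins such as ATF3, or with BATF proteins. The dimers bind the TPA response element TGACTCA or the related cyclic AMP response element (CRE) TGACGTCA. Fos, Fosb, Jun, Junb, and Atf3 are immediate early genes: signals that activate MAP kinases or raise cyclic AMP or calcium switch on their transcription within minutes through factors already present, among them SRF, CREB, and preformed Jun and ATF dimers, and the transcripts are short-lived. Fosl1 and Fosl2 usually follow later. Jund is expressed more steadily in most cells. In DCs, BATF3 is needed for the development of the cross-presenting conventional lineage, and BATF proteins bind composite sites with IRF4 or IRF8.

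The promoters of Fos, Fosb, Jun, Junb, and Atf3 are shown because the first 4 of these members passed the test of 4.4 mg/ml against suspension and Atf3 came next by adjusted p. Each runs 5′ to 3′ from 250 bases before to 50 bases after the RefSeq start (GRCm38.p6). The windows are chr12:85473640-85473939 on the plus strand for Fos and, on the minus strand, chr7:19309996-19310295 for Fosb, chr4:95052173-95052472 for Jun, chr8:84978699-84978998 for Junb, and chr1:191183284-191183583 for Atf3. Capitals mark TGACG (or its complement CGTCA), the core of the CRE, the site TGACATCA, and TATAAA, the letters of the TATA box.
Fos: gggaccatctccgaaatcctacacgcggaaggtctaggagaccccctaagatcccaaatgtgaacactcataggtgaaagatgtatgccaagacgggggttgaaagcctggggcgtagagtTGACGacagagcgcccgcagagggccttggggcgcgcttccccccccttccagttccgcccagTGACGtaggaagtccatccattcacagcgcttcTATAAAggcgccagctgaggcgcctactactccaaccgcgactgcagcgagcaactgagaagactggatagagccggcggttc
Fosb: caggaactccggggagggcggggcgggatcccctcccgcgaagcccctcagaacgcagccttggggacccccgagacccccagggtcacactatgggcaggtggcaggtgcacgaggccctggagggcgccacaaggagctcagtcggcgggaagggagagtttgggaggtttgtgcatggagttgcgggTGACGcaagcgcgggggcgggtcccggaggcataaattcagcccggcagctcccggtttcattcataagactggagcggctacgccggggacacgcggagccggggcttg
Jun: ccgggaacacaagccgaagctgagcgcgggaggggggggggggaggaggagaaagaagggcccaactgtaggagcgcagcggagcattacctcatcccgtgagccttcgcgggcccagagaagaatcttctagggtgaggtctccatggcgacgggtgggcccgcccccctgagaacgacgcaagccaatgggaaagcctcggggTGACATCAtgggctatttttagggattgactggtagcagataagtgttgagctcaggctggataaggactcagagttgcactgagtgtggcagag
Junb: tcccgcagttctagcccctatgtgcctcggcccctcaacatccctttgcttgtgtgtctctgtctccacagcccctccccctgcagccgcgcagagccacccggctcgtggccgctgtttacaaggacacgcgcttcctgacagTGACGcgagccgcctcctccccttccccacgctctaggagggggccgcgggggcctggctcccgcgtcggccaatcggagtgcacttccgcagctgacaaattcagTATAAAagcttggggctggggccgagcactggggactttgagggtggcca
Atf3: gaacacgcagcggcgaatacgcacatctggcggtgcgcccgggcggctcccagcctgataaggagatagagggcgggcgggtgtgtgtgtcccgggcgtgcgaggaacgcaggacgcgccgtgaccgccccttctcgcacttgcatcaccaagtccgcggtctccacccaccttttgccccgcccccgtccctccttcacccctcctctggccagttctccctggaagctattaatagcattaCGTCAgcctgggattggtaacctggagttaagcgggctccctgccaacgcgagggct

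These windows were searched on both strands, with positions counted from 1 at the start base and backward from -1. Fos held TGACG at -129 and at -66 and TATAAA at -33, Fosb held TGACG at -60, and Junb held TGACG at -106 and TATAAA at 1. In Junb, TATAAA thus lay at the RefSeq start and not upstream of it as in Fos. The gene model of Junb begins downstream of that start, at chr8:84978718 on the minus strand. Jun held TGACATCA, a site at which Jun and ATF dimers are known to bind in this promoter, at -45. Atf3 held CGTCA at -7. Of the 9 members with an entry, 5 held TGACG on either strand (Fos, Fosb, Junb, Atf3, and Batf), and so did 20.8% of all 32851 promoters of the same length. The GC content of these 5 was 58.7%, 68.3%, 65.3%, 64.7%, and 49.7%, against a median of 52.7% over all promoters. The part of base composition in these counts was not tested. TATAAA was in 2 of the 9 and in 13.6% of all promoters, and TGACATCA was in 1 of the 9 and in 3.62%. None of the 9 windows held TGACTCA, the full CRE, or a CArG box, the SRF site, which were found in 5.20%, 1.79%, and 1.63% of all promoters. Sites outside these short windows were not searched, so a member may have such a site further upstream. CCAAT, on either strand, was in Jun at -65, in Junb at -36, and in Atf3 at 6, and in 37.4% of all promoters. TGACG is contained in the full CRE, so these counts can overlap elsewhere. The promoter table used held 9 of the 10 members, without Fosl1, and the entry for Jund lies upstream of the gene model used for counting lengths. The printed window of Atf3 lies wholly within its gene model (chr1:191170296-191218039), so its start is not the 5′ end of that model.

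In the GRCm38 annotation, Fos (ENSMUSG00000021250) lies at chr12:85473890-85477273, Fosb (ENSMUSG00000003545) at chr7:19302696-19310051, Fosl1 (ENSMUSG00000024912) at chr19:5447547-5455946, and Fosl2 (ENSMUSG00000029135) at chr5:32135801-32157842. Jun (ENSMUSG00000052684) lies at chr4:95049034-95052222, Junb (ENSMUSG00000052837) at chr8:84974484-84978718, and Jund (ENSMUSG00000071076) at chr8:70698949-70700616. Atf3 (ENSMUSG00000026628) and Batf3 (ENSMUSG00000026630) are neighbors, at chr1:191170296-191218039 and chr1:191097847-191108945, and Batf (ENSMUSG00000034266) lies at chr12:85686669-85709087. Genes on the opposite strand overlap Fosl1 (Ccdc85b), Jun (Junos), Junb (Prdx2), Jund (Gm11175), and Atf3 (Gm24748). The library kit kept the strand, but whether the counting used it is not given in the sources used here, so reads of these overlapping genes may be in the counts.

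Per kilobase of exon, Junb and Atf3 were the most abundant members and Fos, Fosb, and Fosl1 the least. The mean over the 18 libraries was 340 CPM per kilobase for Junb and 219.7 for Atf3, followed by Batf3 (57.4), Jund (52.5), Batf (37.0), Jun (27.2), and Fosl2 (23.4). Fos (8.21), Fosb (5.13), and Fosl1 (3.74) were lowest. The mean of Fosb rests on the high libraries at 4.4 mg/ml: its median over libraries was 0.68 against 2.30 for Fosl1, and in suspension Fosb averaged 0.43 and Fosl1 2.75. Levels varied more than these means differ for several neighbors in this order, with standard deviations over libraries of 274 for Junb, 150 for Atf3, 12.1 for Fos, and 12.8 for Fosb. With the longest transcript as the length, Batf passed Jund and Fosl2 passed Jun, and the other ranks stayed.

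Against suspension, the mean of the 4 collagen groups was higher for all 10 members, with a median log2 fold change of 0.59, compared with a median of 0 and 50.2% positive values over all genes tested. Jun and Batf passed the threshold of an adjusted p of 0.1 (quasi-likelihood F-test of edgeR, adjusted over all genes tested by the Benjamini-Hochberg method), both higher in collagen. Of all genes tested, 20.2% passed in either direction and 7.78% were higher. With the replicate block, 9 of the 10 members passed, all higher and all but Fosl2, compared with 34.8% of all genes in either direction and 15.6% higher. No member was lower in collagen in either fit. No member had its 12 collagen libraries all above the 6 suspension libraries, which was so for 0.506% of all genes. The plot of CPM by library shows that much of the overlap followed the replicate number.

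**Figure D1:**
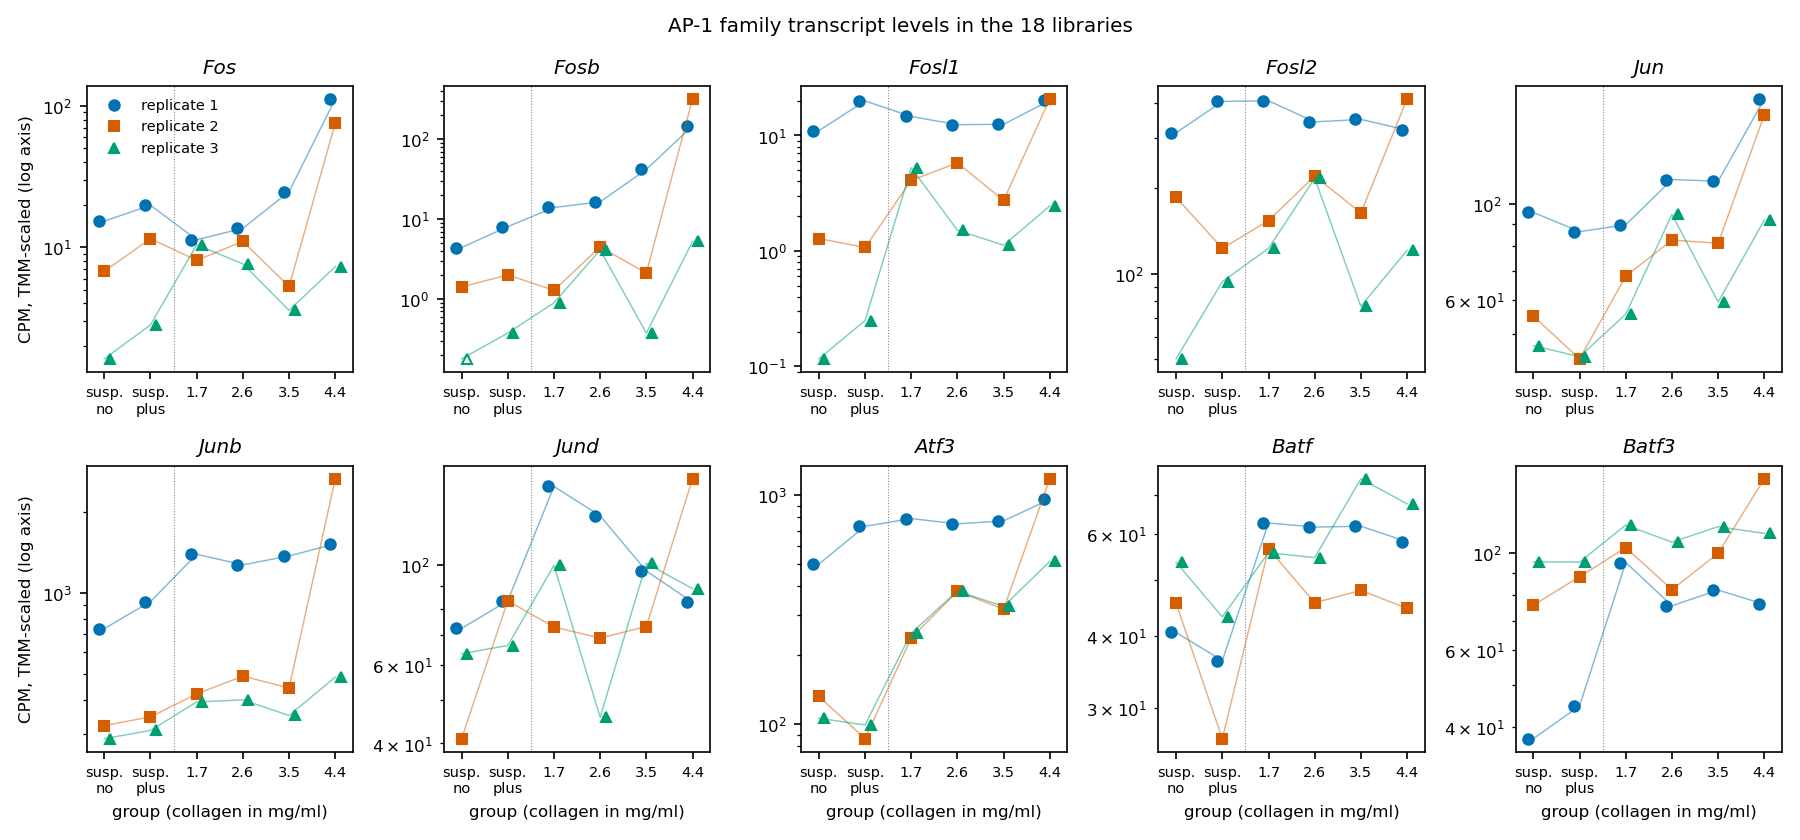
Level of each AP-1 gene in CPM (TMM-scaled, log axis) in the 18 libraries, with suspension groups (titled without and plus CCL19) left of the dotted line and collagen groups in mg/ml right of it. Colors and symbols give the replicate number, lines join libraries of the same replicate, and the open symbol is the library with 0 counts of Fosb, drawn at 3 counts. Replicates 1 and 2 at 4.4 mg/ml stand out for Fos (112 and 75.5 CPM) and Fosb (148 and 321 CPM).

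Among the Fos genes, Fosb had the largest fitted difference. In suspension, it was at 0, 1.41, and 4.40 CPM without CCL19 in the title and at 0.373, 2.00, and 8.07 CPM with it. The 0 was a count of 0 among 16934387, which allows up to 0.177 CPM. In collagen, Fosb was at 0.893, 1.28, and 14 CPM in the loosest gel (1.7 mg/ml). The 2.6 mg/ml gel gave 4.11, 4.48, and 16.5 CPM, and the 3.5 mg/ml gel gave 0.372, 2.11, and 42.0 CPM. At 4.4 mg/ml it reached 5.25, 148, and 321 CPM. The lowest value at 4.4 mg/ml, that of replicate 3, lay within the range of suspension, but it was above the suspension libraries of the same replicate, which had 0 and 0.373 CPM. Collagen against suspension gave a log2 fold change of 2.77 (SE 1.09, adjusted p = 0.103), and 3.01 (SE 0.64, adjusted p = 0.00220) with the block.

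Fos, the founding member of the family, was at 1.62 to 19.8 CPM in suspension (mean 9.62 ± 7.17, SD, n = 6) and at 3.57 to 24.7 CPM in the 9 libraries between 1.7 and 3.5 mg/ml. At 4.4 mg/ml it was at 7.29, 75.5, and 112 CPM, so that 2 libraries stood above all others and the third did not. Collagen against suspension gave 0.81 (SE 0.57, adjusted p = 0.377), and 1.05 (SE 0.36, adjusted p = 0.0380) with the block.

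Fosl1, which encodes FRA-1, followed the replicate more than the group. It was at 11 and 19.9 CPM in the suspension libraries of replicate 1, at 1.28 and 1.07 CPM in those of replicate 2, and at 0.116 and 0.249 CPM in those of replicate 3, where the lower value rests on 2 counts. The 4 collagen libraries had 12.4 to 20.1 CPM in replicate 1, 2.74 to 20.7 CPM in replicate 2, and 1.12 to 5.25 CPM in replicate 3. Collagen thus exceeded suspension within replicates 2 and 3 by 2.27 and 3.01 on the log2 scale, and within replicate 1 the difference was -0.01. The fitted change was 0.56 (SE 0.86, adjusted p = 0.722), and 1.54 (SE 0.49, adjusted p = 0.0275) with the block. Fosl2, which encodes FRA-2, was the most abundant Fos gene, at 50.2 to 405 CPM in suspension and 76.9 to 413 CPM in collagen. Its change of 0.30 (SE 0.44, adjusted p = 0.704) did not pass either way (0.47, SE 0.23, adjusted p = 0.142 with the block), and within replicate 1 the difference was again -0.01.

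Jun encodes c-Jun. Suspension libraries held 86.4 and 95.7 CPM in replicate 1, 43.9 and 55.1 CPM in replicate 2, and 44.4 and 47.1 CPM in replicate 3. The collagen libraries held 89.6 to 175 CPM in replicate 1, 68.2 to 161 CPM in replicate 2, and 55.7 to 94.7 CPM in replicate 3. Within replicates 2 and 3, all 4 collagen libraries were above both suspension libraries, and in replicate 1 the library at 1.7 mg/ml fell between them. The log2 fold change was 0.62 (SE 0.23, adjusted p = 0.0832), and 0.66 (SE 0.14, adjusted p = 0.00242) with the block. The call without the block ended when replicate 2 (adjusted p = 0.477), replicate 3 (adjusted p = 0.191), or either of the libraries of replicates 1 and 2 at 4.4 mg/ml (adjusted p = 0.132 and 0.108) was left out, and with no filter on low counts (0.59, adjusted p = 0.148). In that order, 4.47%, 10.5%, 16.8%, 20.6%, and 9.09% of all genes passed, compared with 20.2% in the reported fit. The last share is over all 29875 genes of the table.

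Junb, which encodes a Jun protein that can restrain c-Jun, was at 287 to 927 CPM in suspension and at 350 to 2650 CPM in collagen. Replicate 1 was high in every group, at 736 to 1520 CPM, against 287 to 490 CPM in all libraries of replicates 2 and 3 but that of replicate 2 at 4.4 mg/ml. Within each replicate, Junb was lowest in the 2 suspension libraries. The change was 0.85 (SE 0.45, adjusted p = 0.235), and 0.82 (SE 0.25, adjusted p = 0.0200) with the block. Jund was at 41.0 to 83.3 CPM in suspension and 45.8 to 156 CPM in collagen. Its change was 0.51 (SE 0.24, adjusted p = 0.170), and 0.50 (SE 0.21, adjusted p = 0.0823) with the block, and neither group nor replicate ordered its libraries throughout.

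Atf3, a stress-inducible ATF gene, was at 500 and 732 CPM in the suspension libraries of replicate 1 but at 86.3 to 132 CPM in those of replicates 2 and 3. The collagen libraries held 750 to 960 CPM in replicate 1, 238 to 1180 CPM in replicate 2, and 250 to 514 CPM in replicate 3. Within every replicate, all 4 collagen libraries were above both suspension libraries. The difference of means was 0.43 in replicate 1, 2.00 in replicate 2, and 1.80 in replicate 3 on the log2 scale. The fitted change was 1.00 (SE 0.49, adjusted p = 0.200), and 1.38 (SE 0.27, adjusted p = 0.00135) with the block. Without replicate 1 it was 1.96 and passed without the block (adjusted p = 0.00328), as did Fosl1 (2.77, adjusted p = 0.0446).

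Batf held the lowest adjusted p without the block, although its change was small. It was at 26.5 to 53.6 CPM in suspension (mean 40.9) and at 44.6 to 74.8 CPM in collagen (mean 57.7). The log2 fold change was 0.51 (SE 0.16, adjusted p = 0.0478), and 0.51 (SE 0.13, adjusted p = 0.00950) with the block. The call ended when replicate 1, 2, or 3 was left out (0.45, 0.53, and 0.58, adjusted p = 0.288, 0.230, and 0.109), with GC and length offsets (0.43, adjusted p = 0.184), and with no filter on low counts (0.48, adjusted p = 0.309). In that order, 11.3%, 4.47%, 10.5%, 21.2%, and 9.09% of all genes passed, the last share being over all 29875 genes of the table. Batf3 was at 37.6 to 95.5 CPM in suspension and 75.8 to 148 CPM in collagen, with a change of 0.47 (SE 0.22, adjusted p = 0.180), and 0.53 (SE 0.15, adjusted p = 0.0171) with the block. In contrast to Fos, Junb, and Atf3, its lowest libraries were the suspension libraries of replicate 1, at 37.6 and 44.7 CPM.

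Within replicates, 8 of the 10 members (all but Fosl1 and Fosl2) had a higher mean log2 CPM in collagen than in suspension in each of the 3 replicates, compared with 24.3% of all genes tested. The smallest of these differences was 0.23 for Batf3 in replicate 3, and the largest was 2.98 for Fosb in replicate 3, which is set against a library with 0 counts and became 4.01 with a prior count of 0.5 in place of 2.

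**Figure D2:**
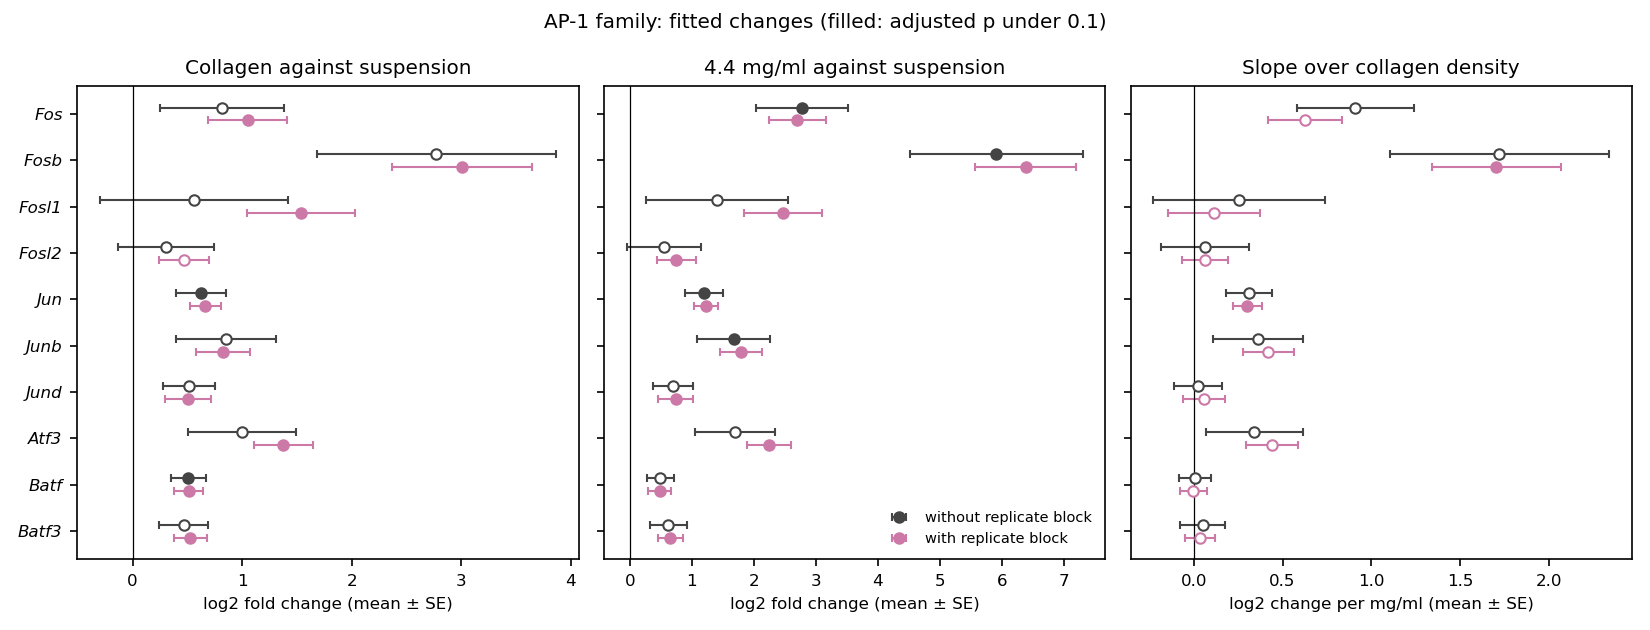
Fitted log2 change of each AP-1 gene with its SE for collagen against suspension, for 4.4 mg/ml against suspension, and per mg/ml of collagen across the 4 densities, without (dark) and with (pink) the replicate block. Filled points passed an adjusted p of 0.1: 2, 4, and 0 members without the block and 9, 10, and 2 with it.

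The densest gel separated most from suspension. At 4.4 mg/ml, 4 of the 10 members passed the threshold without the block, all higher (Fos, Fosb, Jun, and Junb), compared with 14.8% of all genes in either direction and 6.55% higher. With the block, all 10 passed, all higher, compared with 31.9% of all genes and 15.8% higher. The median over the members was 1.30, and 0.01 over all genes. Fosb changed by 5.91 on the log2 scale (SE 1.39, adjusted p = 0.0146), which is 60.1-fold, Fos by 2.77 (SE 0.74, adjusted p = 0.0270), Junb by 1.67 (SE 0.59, adjusted p = 0.0884), and Jun by 1.20 (SE 0.31, adjusted p = 0.0218). With the block, the values were 6.38, 2.7, 1.79, and 1.23. Atf3 was at 1.69 (SE 0.64, adjusted p = 0.111), and 2.24 (SE 0.35, adjusted p = 0.000306) with the block.

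These calls depended on which libraries entered the fit, as did those over all genes. The share of all genes that passed was 14.8% in the reported fit, 0.751% without replicate 2, and 6.78% without the library of replicate 1 at 4.4 mg/ml. Without replicate 2, none of the 4 passed (Fos 2.65, adjusted p = 0.332; Fosb 4.68, adjusted p = 0.306; Jun 0.98, adjusted p = 0.381; Junb 0.86, adjusted p = 0.698). Without the library of replicate 1 at 4.4 mg/ml, an omission chosen after seeing the data, Fosb alone passed, while Fos was at 2.12 (adjusted p = 0.169), Jun at 1.02 (adjusted p = 0.124), and Junb at 1.68 (adjusted p = 0.194). Without replicate 1 as a whole, 7 members passed, compared with 11.8% of all genes in that fit. Junb also fell short without replicate 3 (1.85, adjusted p = 0.151) and without replicate 2 at 4.4 mg/ml (1.04, adjusted p = 0.392). Of all genes, 6.92% and 10.1% passed in these fits. Junb at 4.4 mg/ml was at 1520 CPM in replicate 1, 2650 CPM in replicate 2, and 486 CPM in replicate 3.

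The directions within replicates were more even than the sizes. Against the suspension mean of the same replicate, Fosb at 4.4 mg/ml was higher by 4.61, 7.48, and 4.54 on the log2 scale in replicates 1, 2, and 3, Fos by 2.68, 3.08, and 1.72, Jun by 0.94, 1.71, and 1.01, and Junb by 0.88, 2.99, and 0.71. Atf3 was higher by 0.67, 3.46, and 2.33. Of the 10 members, 7 (Fos, Fosb, Fosl1, Jun, Junb, Atf3, and Batf3), were above both suspension libraries of their replicate in all 3 replicates, compared with 13.3% of all genes. Fosb, Junb, and Atf3 were at their highest of the 6 libraries of a replicate at 4.4 mg/ml in all 3 replicates, 3 of 10 members compared with 2.29% of all genes. Without regard to replicates, no member had its 3 libraries at 4.4 mg/ml above all 6 suspension libraries, which was so for 4.93% of all genes.

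The looser gels differed less from suspension, and the 4 gels share these suspension libraries. At 1.7 mg/ml, no member passed in either fit, and 0.0361% of all genes passed without the block and 2.91% with it. Batf alone had an unadjusted p under 0.05 there, as did 8.04% of all genes, and DESeq2 called 0 members and 0.398% of all genes. Shares given for DESeq2, here and below, are over all 29875 genes of the table, low counts included. Those of the edgeR fits without and with the block are over the 13844 tested. At 2.6 mg/ml, no member passed without the block (7.87% of all genes), with 0 members at an unadjusted p under 0.05 and 0 called by DESeq2, compared with 20.2% and 6.04% of all genes, and Fosb, Jun, and Atf3 passed with it (21.6%). At 3.5 mg/ml, no member passed without the block (4.90%), with 1 member at an unadjusted p under 0.05 (Batf) and 1 called by DESeq2, compared with 17.6% and 4.38% of all genes, and Atf3 and Batf passed with it (18.4%). The members' median log2 fold changes were 0.54, 0.42, and 0.45 in the gels of 1.7, 2.6, and 3.5 mg/ml, and all 10 values were positive in each. The group mean of Fos was 64.8 CPM at 4.4 mg/ml, its highest, and the other collagen groups (9.91 to 11.2 CPM) lay between the 2 suspension groups (7.88 and 11.4 CPM). The group means of Fosb were 5.40, 8.37, 14.8, and 158 CPM from the loosest to the densest gel, with 1.94 and 3.48 CPM in suspension. The mean at 3.5 mg/ml rests on the 42.0 CPM of replicate 1, since Fosb was lower at 3.5 than at 2.6 mg/ml in replicates 2 and 3, and the fitted change at 3.5 mg/ml was 2.50 (adjusted p = 0.334) and 0.51 without replicate 1 (adjusted p = 0.913). In the order of group means, the ranges of every pair of neighboring groups overlapped for all 10 members, and for 87.3% of all genes tested.

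Across the 4 gel densities, no member passed the test of a linear slope without the block, and 0.00722% of all genes did. An unadjusted p under 0.05 was reached by 3 members (Fos, Fosb, and Jun) and by 7.20% of all genes, and DESeq2 called 0 members and 0.365% of all genes. With the block, Fosb rose by 1.70 per mg/ml (SE 0.36, adjusted p = 0.0543) and Jun by 0.30 per mg/ml (SE 0.08, adjusted p = 0.0960), compared with 1.45% of all genes. Without the block, the same slopes were 1.72 (SE 0.62, adjusted p = 0.525) and 0.31 (SE 0.13, adjusted p = 0.588). Within replicates 1, 2, and 3 the slope of Fosb was 1.28, 2.50, and 0.46, and that of Jun was 0.32, 0.41, and 0.17. The slope of Fos was 1.19 and 0.95 in replicates 1 and 2 and -0.29 in replicate 3. Densest against loosest gel gave the same picture, with no member past the threshold without the block (0.00722% of all genes; the same 3 members and 7.66% of all genes at an unadjusted p under 0.05, and 0 members and 0.425% of all genes called by DESeq2) and Fosb (5.36, SE 1.06, adjusted p = 0.0315) and Jun (0.99, SE 0.23, adjusted p = 0.0543) past it with the block (1.73% of all genes). Batf, with a slope of 0.01 (SE 0.09), and Jund, with a slope of 0.02 (SE 0.13), had the slopes nearest to 0.

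Between the 2 suspension groups, no member passed in either fit, and 0% of the 13844 genes tested did. An unadjusted p under 0.05 was found for 0 members and 855 genes, and DESeq2 without the block called 0 of either. DESeq2 with the block called 258 genes and edgeR with no filter called 10, with 0 members among them. The largest difference among the members was 0.82 for Fosb (SE 1.59, adjusted p = 0.913), and the smallest unadjusted p was that of Batf (-0.40, SE 0.26, adjusted p = 0.764). In the test of any difference among the 6 groups, 1 member passed without the block (Fosb, adjusted p = 0.0921; 4.90% of all genes) and 7 with it (24.3% of all genes).

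The share of the variation in log2 CPM that went with the replicate number exceeded the share that went with the group for Fosl2 (68.1% against 12.6%), Fosl1 (60.3% against 24.2%), Junb (53.0% against 28.8%), Batf3 (44.7% against 35.3%), and Fos (41.9% against 38.2%). The group took the larger share for Batf (61.9% against 22.9%), Jun (57.5% against 34.1%), Fosb (46.8% against 41.2%), Atf3 (43.9% against 41.1%), and Jund (37.1% against 14.1%). Over all genes tested, the medians were 33.6% for the group and 25.5% for the replicate number. These shares were not divided by the number of levels, 6 groups against 3 replicate numbers, which favors the group. A larger group share thus does not show that the group outweighed the replicate number. The macrophage markers moved with the replicate number as well, since they summed to 1526 to 2136 CPM in replicate 1, 452 to 1421 CPM in replicate 2, and 357 to 793 CPM in replicate 3. The replicate means of Fos, Fosl1, Fosl2, Jun, Junb, Jund, and Atf3 had the same order. Batf3 ran the opposite way (68.7, 99.7, and 106.5 CPM), as did the DC marker sums (medians 29370, 39140, and 54200 CPM), and Fosb and Batf had neither order. The part of macrophages and other cells in the replicate differences was not tested.

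**Figure D3:**
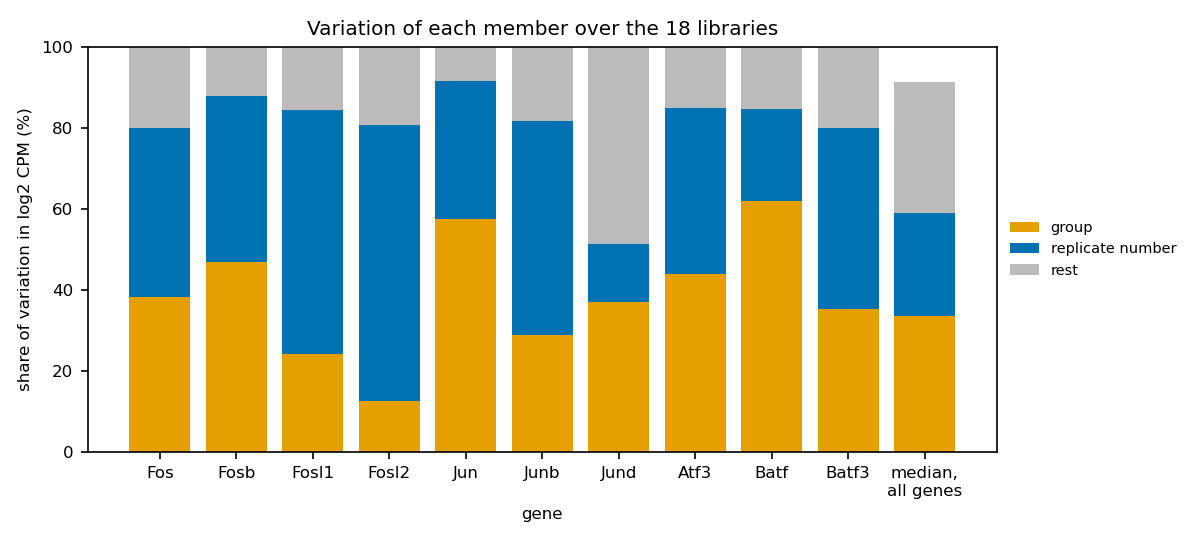
Share of the variation in log2 CPM over the 18 libraries that goes with the group, with the replicate number, and with neither, for each AP-1 gene, and the median of each share over all genes tested, which need not sum to 100%. The replicate number takes 68.1% for Fosl2 and 14.1% for Jund.

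Fos, Fosb, Fosl1, Fosl2, Jun, Junb, and Atf3 varied together across the 18 libraries, with every pair at 0.74 or above. As a description over libraries that share groups and replicates, Pearson's r of log2 CPM was 0.93 for Fos and Fosb, 0.92 for Fosb and Junb, 0.91 for Fosb and Jun, and 0.93 for Jun and Atf3. After removal of the replicate means, these were 0.88, 0.89, 0.88, and 0.90. Other pairs of the genes named first fell further, Fosl1 with Fosl2 from 0.90 to 0.74, Fos with Atf3 from 0.74 to 0.64, and Fos with Fosl2 from 0.79 to 0.60, the lowest among them. Jund was less like the others, with 0.69 for Junb as its highest value. Batf3 was at -0.38 to 0.39 with every other member across all libraries but at 0.32 to 0.72 within replicates, its highest value being that with Junb. For Fosb, the member that passed the test of any difference, the most similar of all tested genes over the 18 libraries were Nr4a1 (r = 0.98), which encodes an orphan nuclear receptor and is itself an immediate early gene, Tnfrsf12a (r = 0.97), the receptor of TWEAK, and Tnfsf9 (r = 0.97), the ligand of 4-1BB.

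Other genes of the pathway were taken from lists by name, which were chosen with earlier results of these data known. Of the 16 other immediate early genes, 7 were higher and 1 was lower in collagen without the block (11 and 2 with it), with a median of 0.74. Over all genes, 7.78% were higher and 12.4% lower (15.6% and 19.3% with the block). The largest changes past the threshold were those of Ier3 (1.86, SE 0.56, adjusted p = 0.0385), a stress-response gene, the zinc finger genes Egr2 (1.80, SE 0.29, adjusted p = 0.00109) and Klf4 (1.75, SE 0.62, adjusted p = 0.0714), and Nr4a2 (1.60, SE 0.43, adjusted p = 0.0220). The gene that was lower was Klf2 (-1.5, SE 0.24, adjusted p = 0.00109). At 4.4 mg/ml, 11 of the 16 were higher and 1 was lower, with a median of 1.44, compared with 6.55% higher and 8.29% lower over all genes.

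Of the 23 other bZIP genes, 6 were higher and none lower in collagen without the block (13 and 1 with it), with a median of 0.38. The shares over all genes were again 7.78% and 12.4% (15.6% and 19.3% with the block). The largest were Atf4 (1.47, SE 0.37, adjusted p = 0.0151), the effector of the integrated stress response, Crem (1.15, SE 0.23, adjusted p = 0.00467) and Creb1 (1.04, SE 0.21, adjusted p = 0.00486), which bind the CRE, and Nfe2l2 (0.90, SE 0.29, adjusted p = 0.0491), which encodes the antioxidant regulator NRF2. Atf4 averaged 234 CPM in suspension and 672 CPM in collagen. The BATF partners Irf4 (0.12, SE 0.18, adjusted p = 0.720) and Irf8 (0.44, SE 0.22, adjusted p = 0.193) did not pass without the block, and Irf8 passed with it (adjusted p = 0.0830).

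Of 19 genes for MAP kinases and for SRF, its partners, and its coactivators, which act upstream of AP-1 transcription, 1 was higher and 4 were lower in collagen (3 and 6 with the block), with a median of 0.03, compared with 7.78% higher and 12.4% lower over all genes. Map3k8, which encodes the kinase TPL2 that links LPS to ERK, was higher (1.16, SE 0.26, adjusted p = 0.00928). The SRF coactivators Mrtfb (-0.97, SE 0.28, adjusted p = 0.0324) and Mrtfa (-0.89, SE 0.13, adjusted p = 0.000746), the SRF partner Elk1 (-0.72, SE 0.18, adjusted p = 0.0134), and the p38 gene Mapk14 (-0.51, SE 0.17, adjusted p = 0.0579) were lower. Srf itself was at 0.22 (SE 0.14, adjusted p = 0.348).

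Of 15 textbook targets of AP-1, 14 were tested, and 2 were higher and 1 was lower in collagen (6 and 1 with the block), with a median of 0.46. Without the block, the called share was near that of all genes (20.2%), and with it 34.8% of all genes were called. Ptgs2, which encodes the inducible cyclooxygenase, changed by 2.78 (SE 0.90, adjusted p = 0.0503), and the cytokine gene Il6 by 1.61 (SE 0.41, adjusted p = 0.0154). Mmp9, a gelatinase gene, was lower (-0.94, SE 0.29, adjusted p = 0.0430). At 4.4 mg/ml, 4 of the 14 were higher and none was lower, with a median of 1.33, compared with 6.55% higher and 8.29% lower over all genes. Mmp3 did not pass the filter on low counts.

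**Figure D4:**
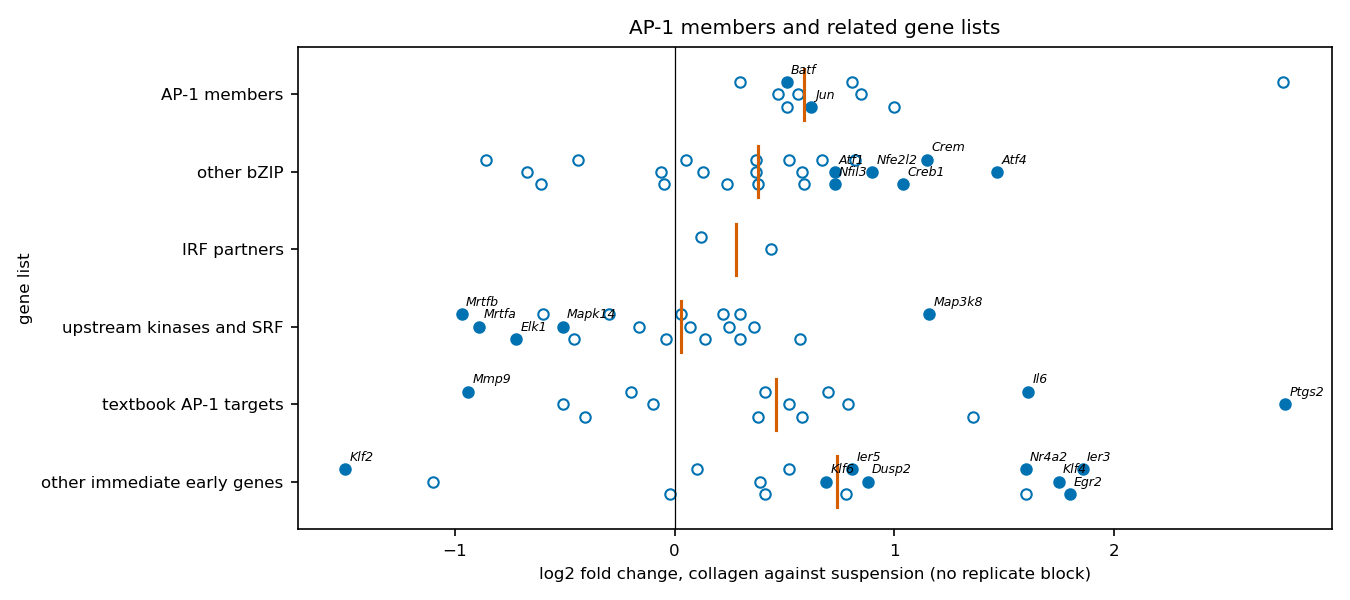
Log2 fold change of each tested gene in collagen against suspension (fit without the replicate block) for the AP-1 members and for related lists. Each point is a gene, filled and named where its adjusted p was under 0.1, and the vertical bars are list medians, from 0.03 for upstream kinases and SRF to 0.74 for other immediate early genes.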

How the data were processed

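RNA was sequenced from 18 libraries of bone marrow–derived DCs, 3 in each of 6 groups. The values are whole-number counts, deposited by the authors for each Ensembl gene and not normalized. Per the methods, reads of stranded mRNA libraries were aligned to GRCm38 with STAR (2.7.0f). RSEM is named for TPM values, which were not used. The tool that gave the deposited counts and its strand setting are not given in the sources used here. Groups and replicate numbers came from the labels. The members and gene lists were chosen with earlier results of these data known.

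From the counts, R 4.3.3 and edgeR 4.0.16 were used with filterByExpr, TMM scaling, and the quasi-likelihood F-test in a single fit over all 18 libraries, giving 9 comparisons. P-values were adjusted over all 13844 genes with the Benjamini-Hochberg method and called at 0.1, the threshold that the methods state. Without the block, they measure the spread between replicates labelled as biological, which includes date and lane. With the block, they measure the spread left after differences between replicate numbers are taken out. SEs were derived from the F statistic. A prior count of 2 entered log2 CPM. CPM were TMM-scaled, except for floors of 3 counts, which used total counts and cover counting error only. The replicate number was fitted as a block because same-numbered libraries share a date and a lane in their names. Over genes, the deviations of same-numbered libraries from their group means had a mean r of 0.43 (45 pairs, -0.15 to 0.85), and those of different numbers a mean r of -0.21. No 2 libraries had identical counts. The block lowered the biological coefficient of variation from 49.0% to 33.1%. Lengths and locations came from GENCODE (GRCm38), promoters from RefSeq (GRCm38.p6). The fit was also run on simulated data with a set spread and set changes. These were not matched to the spread and changes found here, so that run does not bear on the calls reported.

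Named were all 10 members, up to 4 genes of each list past the threshold in collagen against suspension, and the 3 genes most correlated with each member that passed the test of any difference. Srf, the IRF genes, and Mmp3 were named as well, after their values were seen. Alternatives were DESeq2 1.42.0, its size factors in edgeR, no filter, GC and length offsets (loess, span 0.5), the block in each tool, an FDR of 0.05, the compared groups alone, and omissions of replicates or libraries.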

Additional observations from a re-analysis of the deposited data

How the results depend on the processing

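Over the alternatives run, the change of all 10 members stayed positive in collagen against suspension and in 4.4 mg/ml against suspension, in contrast to how many passed the threshold. With the replicate block, the pairing by date and lane, 7 members passed for any difference (1 without it), 9 for collagen against suspension (2), 10 at 4.4 mg/ml (4), 3 in the 2.6 mg/ml gel, 2 in that of 3.5 mg/ml, 2 for the slope, and 2 for 4.4 against 1.7 mg/ml (0 each), and no other count moved by over 1.5 times. The replicate block in DESeq2 gave 8, 10, 10, 5, 4, 5, and 5 in the same order and 3 at 1.7 mg/ml (0), and the replicate block with GC and length offsets gave 8, 10, 8, 7, 5, 3, and 4. Over all genes, the shares also rose with the block within each tool. With the block in DESeq2, over all 29875 genes of the table, they were 17.4%, 17.8%, 16.6%, 11.9%, 10.5%, 2.81%, and 3.02% in that order (3.67% at 1.7 mg/ml). DESeq2 without the block gave 11.3% for collagen against suspension. With the block and the offsets, over 13834 genes, the shares were 27.3%, 37.6%, 35.2%, 24.7%, 17.5%, 5.10%, and 6.69%. Without the block, DESeq2 called 3 for any difference and 1 at 3.5 mg/ml (6.62% and 4.38% of all genes). No filter on low counts gave 4 for any difference and 4 for collagen against suspension (Fos, Fosb, Junb, and Atf3, in place of Jun and Batf). It gave 2 for the slope, 2 for 4.4 against 1.7 mg/ml, and 1 each at 2.6 and 3.5 mg/ml. In that order, the shares of all 29875 genes of the table were 6.67%, 9.09%, 0.465%, 0.505%, 4.11%, and 2.36%. GC and length offsets gave 1 at 2.6 mg/ml (8.15% of all genes). At an FDR of 0.05, 0 passed for any difference and 1 for collagen against suspension, and Junb no longer passed at 4.4 mg/ml. The share of all genes was not counted at this threshold, so these counts cannot be set against it. Leaving out a replicate or a library at 4.4 mg/ml gave 0 to 2 for any difference, 0 to 3 for collagen against suspension, 0 to 1 at 2.6 mg/ml, and 0 to 7 at 4.4 mg/ml. Over all genes, the shares in these fits were 0% to 4.26%, 4.47% to 20.6%, 0% to 9.60%, and 0.751% to 11.8%. The cause of these changes was not tested, except that omissions leave fewer libraries. The offsets were centred in each library so that they left its scaling alone, a correction made after a first version had shifted all genes.

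The signs that turned belonged to changes that did not pass the threshold in the reported fit. The slope of Batf (0.01) was -0.01 with no filter, 0 with the replicate block, -0.04 with GC and length offsets, and -0.05 with both. That of Batf3 (0.05) was -0.02 with the offsets and -0.01 with the block and the offsets. With the offsets, Fos at 1.7 mg/ml was -0.04, Fosl1 at 3.5 mg/ml 0, and, for 4.4 against 1.7 mg/ml, Jund -0.02 and Batf3 -0.04, and with the block added Jund was 0 and Batf3 -0.01. With no filter, Fosl1 and Fosl2 at 3.5 mg/ml were -0.02 and -0.01 and Jund for 4.4 against 1.7 mg/ml -0.03. Between the suspension groups, the offsets gave -0.30 for Junb, -0.26 for Jund, and -0.48 for Batf3, and with the block -0.34, -0.26, and -0.47, with Atf3 at -0.16. With omissions, slopes ranged from -0.13 to 0.25 for Fosl2, -0.17 to 0.26 for Jund, -0.07 to 0.06 for Batf, and -0.05 to 0.12 for Batf3. Against suspension, the range of Fos was -0.43 to 0.80 at 1.7 mg/ml, -0.09 to 0.79 at 2.6 mg/ml, and -0.25 to 0.57 at 3.5 mg/ml, that of Fosl1 -0.07 to 2.44 at 2.6 mg/ml and -0.09 to 1.57 at 3.5 mg/ml, and that of Jund -0.12 to 0.53 at 2.6 mg/ml. For 4.4 against 1.7 mg/ml, the ranges were -0.26 to 1.01 for Fosl2, -0.55 to 0.56 for Jund, -0.22 to 0.11 for Batf, and -0.18 to 0.30 for Batf3. Between the suspension groups, they were -0.19 to 0.93 for Fosl1, -0.12 to 0.52 for Fosl2, and -0.36 to 0.53 for Atf3. Depth limits Fosb and Fosl1 most, which had 0 and 2 counts in their lowest library.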
